A study of Mus musculus with 3 samples.

Results

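The genes that write, copy and remove DNA methylation were read in 4T1, a mouse breast cancer cell line, after forced expression of WISP2, a secreted protein of the CCN family. The group is 10 genes named by symbol. It holds the methyltransferases Dnmt1, Dnmt3a, Dnmt3b and Dnmt3l, and the maintenance cofactor Uhrf1 with its paralog Uhrf2. The dioxygenases Tet1, Tet2 and Tet3 and the glycosylase Tdg complete it. All 10 are among the 34591 symbols of the count table. The series holds 3 messenger RNA libraries of a single group, with the genotype given as WISP2 OE. A packaged vector was applied to the cells, followed by puromycin selection, although the protocol names constructs of Wisp1 rather than WISP2. Whether the line is a clone or a pool, and whether the 3 libraries came from separate cultures, is not given in the sources used here, so every spread below may be technical. The empty-vector controls named by the design text were not analysed here, and no effect of WISP2 was estimated.

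Cytosine methylation is copied after DNA replication by DNMT1, which is brought to hemimethylated DNA by UHRF1. DNMT3A and DNMT3B set new methylation, and DNMT3L is a germ cell and embryonic stem cell partner of theirs that has no catalytic activity. TET enzymes oxidise methylated cytosine, using oxoglutarate as a cosubstrate, and TDG excises the more oxidised bases, which base excision repair then replaces.

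Library names follow the column endings: C1 held 17630755 counts, C2 67028365 and C3 47577315. Levels are counts scaled to a common library total (CPM, on column totals), and a gene was called detected where all 3 libraries reached 1 CPM. Wisp2 itself had 429, 384 and 454 CPM in C1, C2 and C3; counts of the introduced and the endogenous gene cannot be told apart. The epithelial markers Krt8, Krt18, Epcam and Cdh1 were all detected. None of 5 fibroblast and none of 4 endothelial markers was, and of 5 leukocyte markers Cd68 and Lyz2 were.

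Of the 10 genes 9 were detected, against 33.8% of all symbols, and 3 of them (Dnmt1, Uhrf1 and Uhrf2) reached 100 CPM in each library, against 6.81%. Dnmt1 and Uhrf1 dominated, Tet3 was the main TET transcript, the de novo methyltransferases were low, and Dnmt3l had no count. Since longer transcripts collect more reads, levels of different genes were compared per kilobase (kb) of exon. In that unit the order was Uhrf1, Dnmt1, Uhrf2, Tdg, Tet3, Dnmt3a, Dnmt3b, Tet2 and Tet1. Each gene exceeded the next in 3 of 3 libraries, by more than 2 SD of the log2 ratio. The place of Tdg is not firm: with the counts of a near-identical pseudogene added it would stand at 21.4 ± 0.41 CPM per kb, above Uhrf2 at 12.6. With the Tdg row alone, the order was the same per kb of coding sequence, except for Tet3 and Dnmt3a. These 2 genes then differed by less than 2 SD, with Tet3 higher in 2 of 3 libraries (log2 ratio 0.04 ± 0.05, SD). The sum of Tdg and its pseudogene was not computed per kb of coding sequence, so the place of Tdg is not firm there either.

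**Figure D1:**
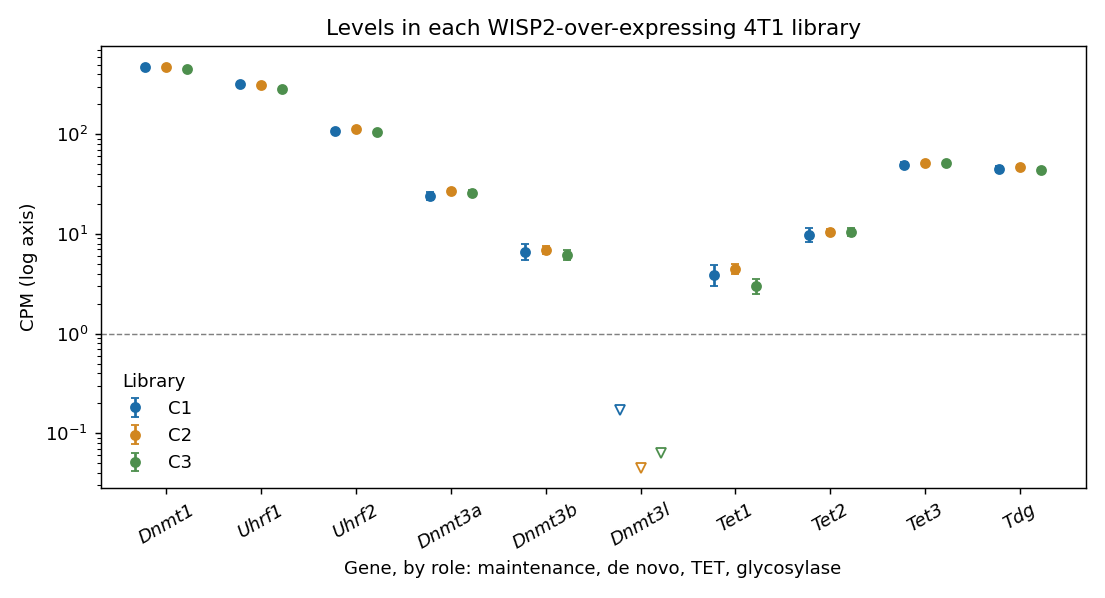
CPM (log axis) of the 10 genes in each of the 3 libraries, with exact 95% binomial intervals; open triangles mark the limit that 0 counts of Dnmt3l allow, and the dashed line is 1 CPM. Dnmt1 lies between 446 and 473 CPM, Tet1 between 2.98 and 4.48 CPM, and Dnmt3l below the line in all 3 libraries.

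Dnmt1, the maintenance methyltransferase, had 473, 470 and 446 CPM in C1, C2 and C3. Uhrf1, which reads hemimethylated CpG sites and recruits DNMT1, had 315, 312 and 284 CPM. Both were lowest in C3, and C1 and C2 were close to each other. Uhrf2, the paralog of Uhrf1, had 107, 113 and 104 CPM. Per kb of exon Uhrf1 averaged 71.3 ± 3.98 CPM (SD, n = 3) and Dnmt1 62.7 ± 2.01, above 93.2% and 92.2% of the detected genes that had a length. Uhrf2 averaged 12.6 ± 0.52 CPM per kb. Within libraries Uhrf1 exceeded Uhrf2 by a log2 ratio of 2.50 ± 0.06 per kb of exon, a 5.67-fold excess. Uhrf2 made up 15.0% ± 0.53 of the summed CPM per kb of both UHRF genes. Dnmt1 lay below Uhrf1 per kb of exon (log2 ratio -0.18 ± 0.04) and above it without length correction (0.61 in log2 CPM). A processed pseudogene, Gm5648, is 98.3% identical to Uhrf1 over 1590 aligned bases. Its row had a mean of 1.40 CPM, so reads counted there could move Uhrf1 little. Any reads left uncounted because they matched both genes would show in neither row.

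Dnmt1 and Uhrf1 were also the only ones of the 10 genes whose RefSeq promoter windows held a consensus word of E2F, the factor family of S phase genes. The windows run from 250 bases before to 50 after each RefSeq start on GRCm38.p6, a later build than the mm9 that the submitters name. The words searched were TTTCCCGC, TTTCGCGC, TTTGCCGC and TTTGGCGC, on both strands, where matches on opposite strands may overlap; they were chosen with these windows in view. Such a word was in 2.27% of all 32841 windows and in 2 of the 17 windows of the 10 genes. With windows numbered along transcription, these were window 3 of Dnmt1 and window 2 of Uhrf1. Windows 1 and 2 of Dnmt1 and window 1 of Uhrf1 held none. Upstream and downstream below refer to the start of the window that holds the word. The upstream stretch of Dnmt1 lies past the starts of its windows 1 and 2. A match is a description of the letters and no evidence of binding. The 30 bases around each match follow, with the word in capitals, from chr9:20952824-20952853 (minus strand), chr9:20952574-20952603 (minus strand, past the start) and chr17:56304117-56304146 (plus strand).
Dnmt1 upstream: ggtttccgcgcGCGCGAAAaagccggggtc
Dnmt1 downstream: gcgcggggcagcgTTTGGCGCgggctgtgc
Uhrf1 upstream: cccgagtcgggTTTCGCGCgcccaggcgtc

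Among the de novo enzymes Dnmt3a had 24.0, 26.8 and 26.0 CPM in the libraries C1, C2 and C3, and Dnmt3b had 6.58, 6.97 and 6.16 CPM. Per kb of exon the libraries ran between 1.44 and 1.61 CPM for Dnmt3a and between 1.21 and 1.36 CPM for Dnmt3b. These point values did not overlap, but they leave out counting error. The gap was smallest in C1 (log2 ratio 0.16), where Dnmt3a had 423 counts and Dnmt3b 116. Dnmt3a averaged 1.54 ± 0.09 CPM per kb of exon and Dnmt3b 1.29 ± 0.08, so the gap narrowed to 1.19-fold with exon length. It was 3.54-fold with coding length, because the annotated exons of Dnmt3a span 16642 bases and its coding sequence 2833. Dnmt1 exceeded Dnmt3a by a log2 ratio of 5.35 ± 0.11 per kb of exon (40.8-fold), and was 10.5-fold higher per kb of coding sequence. Of the summed DNMT level per kb of exon Dnmt1 made up 95.7% ± 0.20, Dnmt3a 2.35% ± 0.17 and Dnmt3b 1.96% ± 0.07. Per kb of coding sequence these shares were 89.2%, 8.47% and 2.38%. Dnmt3c, a rodent germline paralog, is 93.3% identical to Dnmt3b over 1655 aligned bases; it was not analysed here.

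Dnmt3l had 0 counts in each library, a limit of 0.170 CPM for C1, of 0.0448 CPM for C2 and of 0.0631 CPM for C3. Against that floor of 3 counts per library, Dnmt3a was at least 25.3-fold higher than Dnmt3l per kb of exon. RefSeq lists 3 starts of Dnmt3l, whose 250 upstream bases held 5, 4 and 3 CpG sites, where the median of all windows was 6. Each of the other 9 genes had at least 1 start with 15 or more, but the remaining starts of Dnmt1 held 2 and 7, and that of Uhrf1 10. The quartiles of all windows were 2 and 16, and the starts of Dnmt3l lay between them. The 250 bases before a start are shown for Dnmt3l (chr10:78042037-78042286, plus strand, 5 CpG sites) and for Uhrf1 (chr17:56304063-56304312, plus strand, 30 CpG sites), both from RefSeq on GRCm38.p6, with the CpG sites in capitals, since these are the sites the enzymes act on. Each sequence is from the start of its gene with the most CpG sites. Methylation was not measured.
Dnmt3l: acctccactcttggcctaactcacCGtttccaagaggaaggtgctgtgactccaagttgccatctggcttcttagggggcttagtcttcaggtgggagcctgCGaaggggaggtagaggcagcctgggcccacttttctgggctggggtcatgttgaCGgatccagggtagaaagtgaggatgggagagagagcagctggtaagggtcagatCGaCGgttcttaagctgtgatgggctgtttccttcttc
Uhrf1: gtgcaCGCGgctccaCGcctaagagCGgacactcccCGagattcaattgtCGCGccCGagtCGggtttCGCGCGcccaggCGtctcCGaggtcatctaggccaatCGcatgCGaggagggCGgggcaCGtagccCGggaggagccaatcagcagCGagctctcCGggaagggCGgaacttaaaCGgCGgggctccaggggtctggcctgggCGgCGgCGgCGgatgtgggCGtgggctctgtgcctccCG

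**Figure D2:**
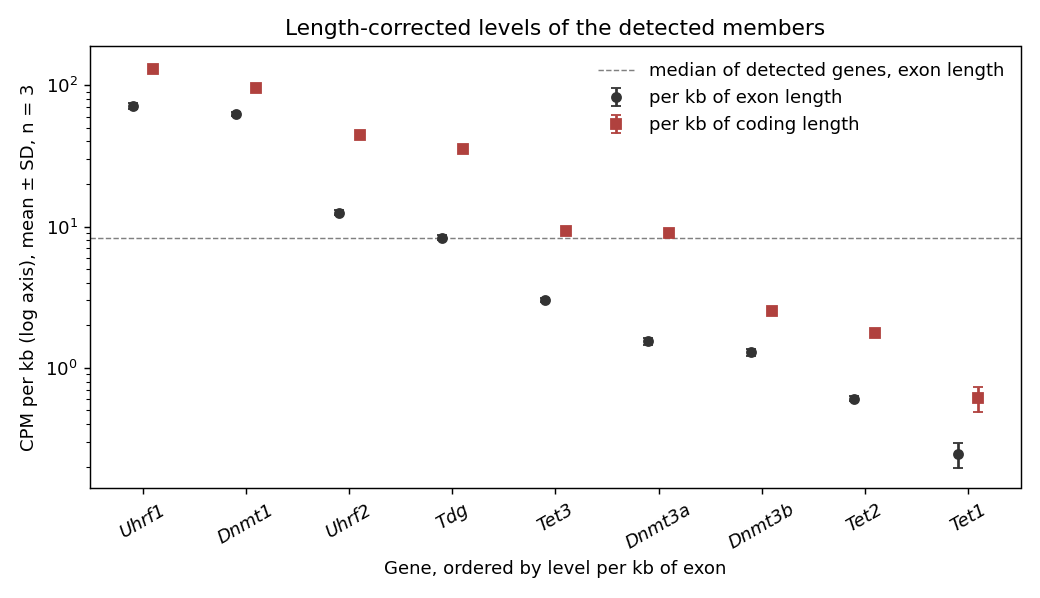
CPM per kb (log axis, mean ± SD, n = 3) of the 9 detected genes, divided by exon length (circles) or by coding length (squares); the dashed line is the median of all detected genes per kb of exon, 8.31. Uhrf1 and Dnmt1 stand highest with either length, and Dnmt3a, Dnmt3b and the TET genes lie below the line per kb of exon.

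Of the TET enzymes Tet3 was highest, with 48.9, 51.3 and 51.1 CPM across C1, C2 and C3. Tet2 had 9.76, 10.4 and 10.4 CPM, and Tet1, the TET enzyme typical of embryonic stem cells, had 3.86, 4.48 and 2.98 CPM. Per kb of exon no library of a gene overlapped with those of the others. In that unit Tet3 was 4.98-fold above Tet2 (log2 ratio 2.32 ± 0.02) and 12.5-fold above Tet1 (3.64 ± 0.30). Tet3 thus made up 78.1% ± 0.93 of the summed TET level, Tet2 15.6% ± 0.32 and Tet1 6.30% ± 1.18. With coding length the shares were 79.5%, 15.2% and 5.24%. Summed per kb of exon, the TET genes stood at 3.87 ± 0.11 CPM and the DNMT genes at 65.6 ± 2.06. Dnmt1 alone was 20.8-fold above Tet3 (log2 ratio 4.38 ± 0.07), and 10.3-fold above it with coding length.

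Tdg, the glycosylase, had 44.4, 47.0 and 43.4 CPM in the libraries, and 8.36 ± 0.34 CPM per kb of exon, above 50.2% of the detected genes with a length. Its level is uncertain. The processed pseudogene Gm9855 is 99.2% identical to Tdg transcripts over 1194 aligned bases, and its row held more counts than that of Tdg: 71.0, 69.7 and 68.9 CPM. The pseudogene row took 60.9% ± 0.99 of the counts of both, which summed to 115 ± 2.22 CPM. How reads that match several genes were counted is not given in the sources used here, so reads of Tdg and of its copy cannot be told apart. Further copies, Tdg-ps and Gm5597, were not analysed here. The exons of Tdg also share 367 bases with Glt8d2 on the opposite strand, which had 7, 20 and 6 counts.

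The 3 libraries were close for most of these genes. Spread was measured in all 13026 genes that passed a filter on low counts. In a Poisson dispersion test with edgeR's TMM scaling, 5 of the 9 detected genes varied more than counting noise allows at an adjusted p of 0.05, against 39.4% of the genes tested. The share depends on depth: it was 72.2% among genes that reached 100 CPM in all libraries, where 3 of 3 genes of the group were called, and 32.2% below that level, where 2 of 6 were. The 5 genes were Uhrf1 (adjusted p = 3.63e-16), Dnmt1 (3.28e-08), Uhrf2 (0.000157), Tet1 (0.00144) and Tdg (0.0371). Dnmt3a (0.158), Dnmt3b (0.368), Tet3 (0.486) and Tet2 (0.745) did not pass. For Uhrf1 the coefficient of variation was 5.58%, where counting alone gives 1.01%. For Dnmt1 these values were 3.21% and 0.817%, for Tet1 19.9% and 9.05%, and for Tet3 2.54% and 2.47%.

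Leaving out a library changed the calls of the group and of all genes together. Without C3, 0 of the 9 genes were called, against 12.6% of all genes tested. Without C2, Uhrf1 and Dnmt1 were called (2 of 9, against 13.6%), and without C1 the count was 5 of 9, against 37.1%. The edgeR quasi-likelihood F test called 0 of the 9, with 0 at an unadjusted p under 0.05, against 0.0768% of genes (10 of 13026, with 678 at an unadjusted p under 0.05). Tet1 had an unadjusted p of 0.0264 in this test without C1 and of 0.0361 without the low-count filter, and passed the adjustment in neither (adjusted p = 0.769 and 0.743).

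In C3, 6 of the 9 genes had their lowest level under total-count, TMM and DESeq2 scaling alike, against 37.3% of all detected genes with column totals and 35.5% with either of the others: Dnmt1, Uhrf1, Uhrf2, Dnmt3b, Tet1 and Tdg. Dnmt3a, Tet2 and Tet3 were lowest in C1 (3 of 9, against 28.9% with column totals, 32.8% with TMM and 31.3% with DESeq2), and none was lowest in C2 (0 of 9, against 33.8%, 31.7% and 33.2%). Uhrf1 in C3 was at 0.901 of its CPM in C1 and 0.913 of that in C2, and Dnmt1 at 0.943 and 0.948. Tet1 differed most, at 0.774 of C1 and 0.667 of C2; its 95% intervals were 2.51 to 3.52 CPM in C3 and 3.98 to 5.01 CPM in C2, and C1 overlapped both (3.00 to 4.89 CPM). Other lists, described further on, were also often lowest in C3 with column totals: 15 of 20 S phase genes, 12 of 14 oxoglutarate genes, and 7 of 11 genes each among maintenance partners, histone regulators and the S-adenosylmethionine cycle. The counts were 5 of 14 for base excision repair, 2 of 8 for MBD and zinc finger genes and 1 of 3 for TET partners. The epithelial marker sum was highest in C3 (2762 CPM, against 2522 in C1 and 2510 in C2), with Krt8, Krt18 and Epcam highest there and Cdh1 lowest (431 CPM there, 437 in C1 and 463 in C2). The leukocyte marker sum was highest in C1 (16.8 CPM, against 8.73 in C2 and 8.79 in C3, with Cd3e at 0). Lyz2 (9.42, 3.12 and 3.78 CPM in C1, C2 and C3), Cd68 and Emr1 were highest there. Ptprc went the other way, lowest in C1 (0.0567, 0.119 and 0.273 CPM, on 1, 8 and 13 counts). The part of these marker genes in the deviations was not tested.

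**Figure D3:**
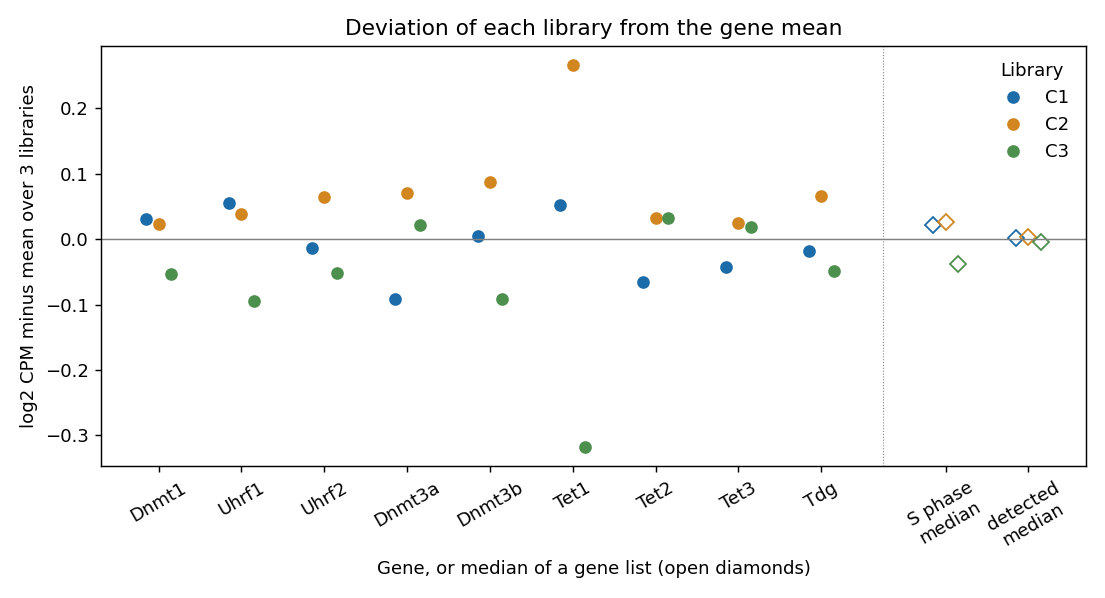
Distance of each library's log2 CPM to the mean of that gene, for the 9 detected genes (filled circles) and, as open diamonds, the median deviation of 20 S phase genes and of all 11700 detected genes. C3 lies lowest for 6 genes, and the widest range is that of Tet1, between -0.32 in C3 and 0.27 in C2.

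The partners of maintenance methylation were all detected, 11 of 11 genes, against 33.8% of all symbols in the table, with a median of 34.5 CPM per kb of exon, against 8.31 over all detected genes. Pcna, the replication clamp that binds DNMT1, stood at 142 ± 3.17 CPM per kb, Hells, the remodeller needed for DNA methylation in mouse, at 49.4 ± 2.05, and Usp7, a deubiquitinase that binds DNMT1 and UHRF1, at 41.2 ± 0.39. The S phase list, which shares Pcna and Chaf1a with these partners, was detected in 20 of 20 cases, with a median of 32.1 CPM per kb and Pcna, Rrm2 (140 ± 4.42) and Mcm6 (97.4 ± 4.09) highest. All 11 histone-modifying regulators that direct or oppose DNMTs were detected (median 14.0 CPM per kb), led by the corepressor Trim28 at 106 ± 3.51, the methyltransferase Ehmt2 at 37.5 ± 0.74 and the methyltransferase Whsc1 at 25.9 ± 0.78.

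Genes of the MBD family and of zinc finger proteins that bind methylated DNA were detected in 8 of 8 cases, against 33.8% of all symbols, at a median of 5.67 CPM per kb. Mbd3, a subunit of the NuRD complex whose mammalian protein does not bind methylated CpG selectively, was highest at 73.5 ± 3.35 CPM per kb. Among the others Mbd2, which does bind methylated CpG, stood at 21.8 ± 0.51 and Zbtb33, which encodes Kaiso, at 9.13 ± 0.43. Of 7 TET partners 3 were detected, against the same 33.8%: Sin3a (20.8 ± 1.13 CPM per kb), Vprbp (18.5 ± 0.83) and Ogt, the glycosyltransferase that binds TET proteins (17.1 ± 0.92). The pluripotency factors Nanog and Prdm14 had 0 counts. Of 15 genes of base excision repair and GADD45 factors, which act after TDG or beside it, 14 were detected, with a median of 6.50 CPM per kb over the 15. The endonuclease Apex1 stood at 88.7 ± 3.31 CPM per kb, Parp1 at 49.1 ± 2.14 and Gadd45b at 39.0 ± 2.04.

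Germline genes that promoter methylation is known to hold silent in mouse somatic cells were not detected. Of 15 such genes 0 were detected, against 33.8% of all symbols, and 7 had 0 counts (46.7%, against 45.7% of all symbols), among them Sycp1, Mael and Asz1. The highest per kb of exon were Dppa5a at 0.195 CPM, Tex101 at 0.0607 and Taf7l at 0.0222. None of the 15 averaged above 0.170 CPM, the limit of 0 counts in C1. The limits in the deeper libraries were lower, at 0.0448 CPM in C2 and 0.0631 in C3. Dppa5a (0.179 CPM in C2, 0.126 in C3) and Tex101 (0.104 and 0.0841) exceeded them. These values rest on 12 and 6 counts for Dppa5a and on 7 and 4 for Tex101. Whether these reads came from the named genes was not tested. Dnmt3l, itself a germline gene, was at 0 counts. None of the 15 passed the low-count filter, so none entered the F test of spread; no gene of the other lists that did enter it passed.

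**Figure D4:**
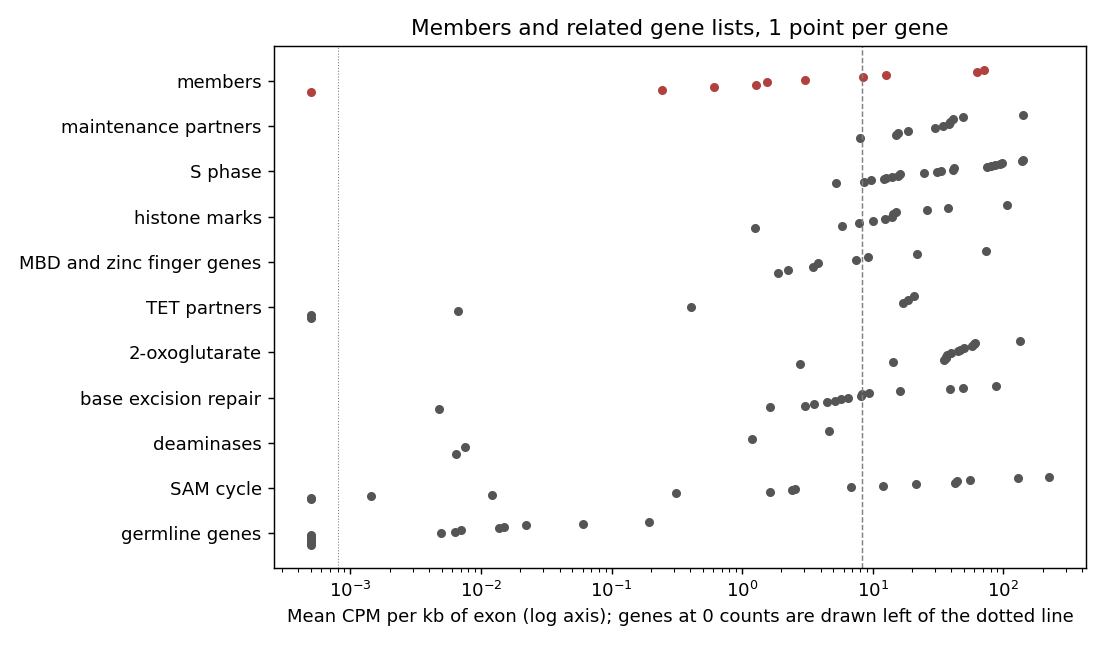
Mean CPM per kb of exon (log axis) of each of the 10 genes (top row) and of the genes in 10 related lists, 1 point per gene; the dashed line is the median of all detected genes, 8.31, and genes at 0 counts lie left of the dotted line. The 9 detected genes of the group span the range between Tet1 at 0.244 and Uhrf1 at 71.3, and Dnmt3l is at 0 counts. The highest germline gene, Dppa5a, lies at 0.195.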

How the data were processed

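Messenger RNA of 3 libraries of WISP2-over-expressing 4T1 cells was sequenced after poly(A) selection with a stranded kit, per the labels' protocols. The deposited table gives raw counts per gene symbol, per the file headers and the whole-number values. CASAVA 1.7, BWA, STAR, HTSeq and build mm9 are named in the submitters' processing notes, with no roles; neither the annotation nor the strandedness of counting nor the treatment of ambiguous reads is given in the sources used here. The columns match no sample title and were assigned to the group as a whole, so library names carry no order.

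CPM was computed on column totals. Exon and coding lengths (merged over transcripts) were taken from GENCODE M21, on another build, and covered 31490 of 34591 symbols (91.0%). Ratios were taken within libraries with 0.5 counts added; against Dnmt3l, at 0 counts, the floor of 3 counts replaced this. No sign-flip test of ratios was run, since the smallest exact p with 3 libraries is 0.25. Spread was tested in R 4.3.3 with edgeR 4.0.16 (TMM, filterByExpr, intercept-only model): a Poisson test of dispersion (2 degrees of freedom, chi-square) and the ratio of quasi-likelihood dispersion to its trend (F test), with Benjamini-Hochberg adjustment at 0.05 over all genes; the code was tested on simulated data. Copies were sought with BLAST among GENCODE transcripts (300 aligned bases, 85% identity). Intervals are exact Clopper-Pearson; like the floors, they reflect counting error alone, because without molecular identifiers reads may be PCR copies. A single count equalled 0.0567, 0.0149 and 0.0210 CPM in C1, C2 and C3.

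The genes and lists were chosen with earlier results of these data known. Of each related list the 3 highest genes per kb and up to 3 genes at 0 counts are named. Alternatives covered scaling (including DESeq2 1.42.0 size factors), filters, lengths, added counts and leaving out each library.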

Additional observations from a re-analysis of the deposited data

How the results depend on the processing

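The number of detected genes among the 10 kept within 1.5 times its value under every scaling, detection limit and left-out library, and the 18 scaling alternatives for the CPM of the 9 genes moved them by less than 1 SD. The number of the 9 tested genes past counting noise ranged between 0 and 5 with a library left out (5 with all), and that of all genes between 1639 and 4953 (5134 with all). Leaving out a library also removes counts and degrees of freedom. In the F test 10 genes passed in all; 171 did without the low-count filter, 0 with a robust prior (592 at an unadjusted p under 0.05), and between 3 and 89 with a library left out; the cause was not tested. None of the 9 genes passed under any of these settings.

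The choice of length moved the ratios. Without length correction the log2 ratio of Dnmt1 to Uhrf1 reversed to 0.61, and with coding length it was -0.44. The ratio of Dnmt1 to Dnmt3a was 4.18 without correction and 3.40 with coding length, that of Dnmt3a to Dnmt3b 1.96 and 1.83, that of Uhrf1 to Uhrf2 1.49 and 1.53, and that of Dnmt1 to Tet3 3.20 and 3.36. The lower bound of Dnmt3a over Dnmt3l, averaged over libraries at 5.87, became 8.35 and 7.19. Tet3 to Tet2 was 2.38 with coding length. Adding 1 count in place of 0.5 moved no ratio by more than its SD; added counts do not enter the bound on Dnmt3l. With the counts of Gm9855 added to Tdg, an alternative chosen after seeing the data, the log2 ratio of Uhrf2 to Tdg reversed to -0.77, where it was 0.59 with the Tdg row alone. No paired analysis was possible because there is 1 group. At 17630755 counts in C1 a gene under 0.170 CPM cannot be told from absent.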

Other observations

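The supply of the methyl donor and of the TET cosubstrate was expressed, with several liver-type genes at or near 0. Of 16 genes of the S-adenosylmethionine cycle 11 were detected, against 33.8% of all symbols, at a median of 4.70 CPM per kb of exon over the 16. Mtap, which salvages methylthioadenosine, was highest at 222 ± 10.9 CPM per kb (SD, n = 3), followed by the mitochondrial serine hydroxymethyltransferase Shmt2 at 130 ± 7.10 and Mat2a, the S-adenosylmethionine synthase of most tissues, at 55.9 ± 3.48. Mat1a, the liver synthase, had 1 count in C2 and none in C1 or C3, and Bhmt and Bhmt2, which remethylate homocysteine in liver, had 0 counts. All 14 genes that make or use oxoglutarate, or clear metabolites that inhibit TET enzymes, were detected, against that same share, at a median of 42.5 CPM per kb, with Sdhd (134 ± 2.05), Idh2 (61.3 ± 1.73) and Glud1 (59.9 ± 2.08) highest. Among cytidine deaminases Apobec3 (4.63 ± 0.20 CPM per kb) and Apobec1 (1.20 ± 0.29) were detected, and Apobec2 averaged 0.0120 CPM.

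The genes closest to Uhrf1 in log2(CPM + 1) over the 3 libraries were Nras (root-mean-square difference 0.02), Gnai3 (0.03) and Mbnl1 (0.04), a likeness of level over 3 libraries and nothing more.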
